A study of Danio rerio with 12 samples.

Results

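The comparison of unexposed zebrafish larvae with larvae raised in 100 µg/L triclosan comprised every fragment of the authors' deposited table for that pair, 17 of 171 entries over the 3 pairs of groups. DNA methylation had been measured by reduced representation bisulfite sequencing, in which DNA is cut by MspI at CCGG and short CpG-rich fragments are sequenced after conversion of unmethylated cytosines. Both groups were of the AB strain, were housed singly in wells at 26.5 °C from the egg and were sampled at 7 days post-fertilisation after 7 days in their medium. The control group (0 µg/L) and the exposed group each gave 4 libraries, each made from a pool of 24 whole larvae. The series design gives 6 plates of 24 wells and 6 sampled pools per condition, so not every pool is represented here. The labels do not say whether either medium held a carrier solvent. If only the exposed medium did, solvent and triclosan cannot be told apart in the differences below. Nor do the labels say whether pools came from separate clutches, so the spread between pools may be partly technical. The fragments had been picked by the authors from these libraries, and every listed difference was at least 15 percentage points. What follows therefore describes them and gives no test of its own.

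Methylation of cytosine in CpG pairs is copied to new strands by Dnmt1, is set by Dnmt3 enzymes and is removed through oxidation by Tet enzymes. In vertebrates most CpG sites are methylated, CpG islands at gene starts are largely unmethylated, and intermediate levels in whole animals occur where cells, or both copies of a locus, differ. In pools of whole larvae, a shift in the mixture of cell types and a change within cells cannot be told apart. Triclosan is an antibacterial agent that blocks fatty acid synthesis in bacteria by inhibiting enoyl reductase.

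In the authors' deposited table, 8 fragments were more methylated at 100 µg/L than in control and 9 were less methylated. They were assigned to 16 genes on 13 chromosomes of build Zv9, and znf536 was the only gene with more than 1 fragment. The levels were intermediate throughout: in the authors' deposited table they ran from 29.7% to 77.3% in control and from 26.2% to 77.5% at 100 µg/L. No fragment had a level under 20% or over 80% in either group, whereas such high levels occurred in 18 of 55 entries for control against 50 µg/L and 31 of 99 for 50 against 100 µg/L. The 50 µg/L group had 3 libraries in 46 of those 55 entries and in 87 of those 99. That contrast between tables was not tested.

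Fragments that were higher at 100 µg/L had control levels of 29.7% to 61.5% (median 50.8%), and those that were lower had control levels of 45.2% to 77.3% (median 61.0%), per the authors' deposited table. At 100 µg/L the order was turned round, with medians of 66.7% and 43.8% for the same fragments. The level moved across 50% in 8 of the 17, of which 6 were among the 9 lower fragments. The control level enters both the level and the difference, so these figures are linked by construction.

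**Figure D1:**
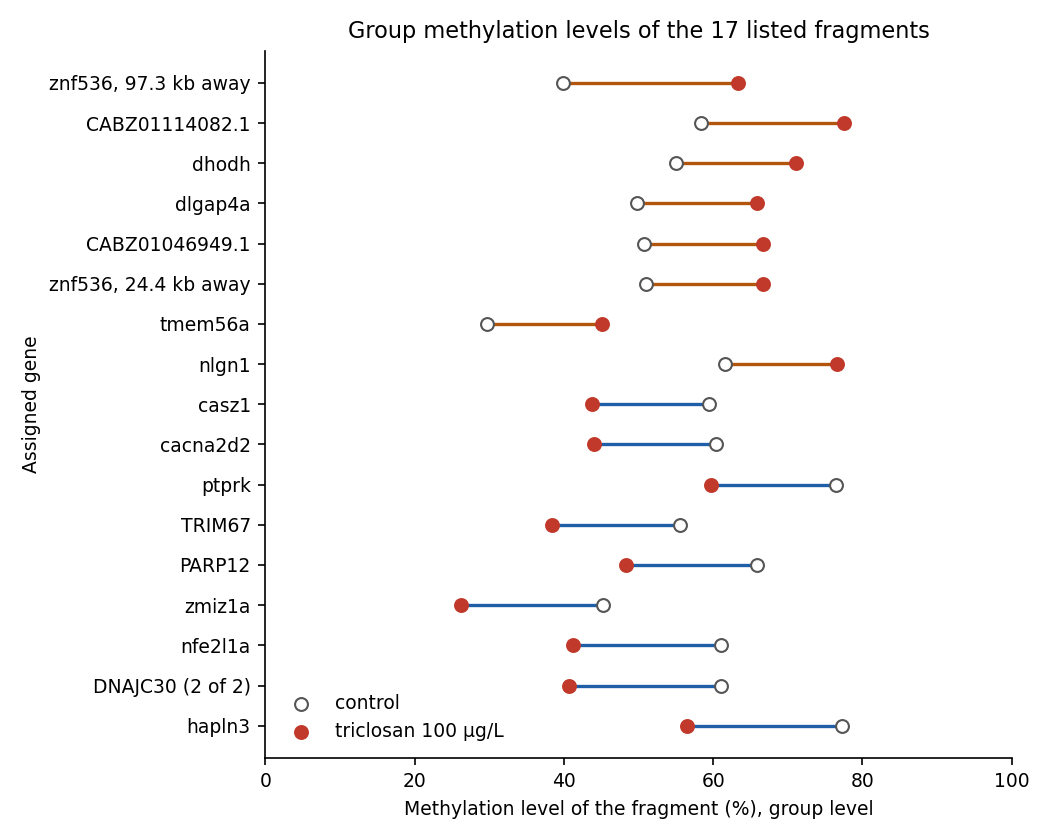
Group methylation level (%, horizontal axis) of each of the 17 fragments (vertical axis, by assigned gene) in control (open circles) and at 100 µg/L triclosan (filled circles), joined by a line in orange where the exposed group was higher and in blue where it was lower. All levels lie between 26.2% and 77.5%, and the largest gap, 23.4 points, is at the znf536 fragment 97.3 kb from the gene.

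Of 40 symbols on a list of synaptic and neuronal membrane genes, 4 had a fragment, of which 2 were higher and 2 were lower at 100 µg/L. This list and those below were drawn up with earlier results of these data known. Their counts only sort the fragments and are not rates of a finding. Standard errors (SE) and 95% intervals below are those implied by the authors' F statistics and library numbers. They take the same spread in both groups. A synaptic adhesion gene, nlgn1, encodes neuroligin 1, which binds presynaptic neurexins. Its fragment (chromosome 11, 9824888 to 9825030), 138 kb outside the listed gene range of 10.6 kb, stood at 61.5% in control and 76.6% with exposure, per the authors' deposited table. The difference of 15.07 points (SE 3.54, interval 5.98 to 24.2, 3 and 4 libraries) was the smallest of the table. A postsynaptic scaffold that in mammals links PSD-95 to Shank proteins is encoded by dlgap4a. Its fragment (chromosome 23, 43269348 to 43269468), 14.98 kb outside the gene, was at 49.8% and 65.9% in the authors' deposited table, a gain of 16.1 points (SE 4.05, interval 6.18 to 26.02, 4 and 4 libraries).

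Both lower fragments of this list lay in introns. In cacna2d2, which encodes an auxiliary alpha-2-delta subunit of voltage-gated calcium channels, the fragment (chromosome 6, 53574316 to 53574433) was at 60.4% in control and 44.01% with exposure, per the authors' deposited table, a loss of 16.4 points (SE 4.23, interval −27.2 to −5.50, 3 and 4 libraries). It sat deep in the longest gene of the table, 268 kb from the gene end that the table measures from, in a listed range of 389 kb. The gene TRIM67 encodes a neuron-enriched member of the tripartite motif family, whose members include ubiquitin ligases. In its intronic fragment (chromosome 20, 4006836 to 4006961) the authors' deposited table gives 55.6% and 38.4%, a loss of 17.2 points (SE 4.40, interval −28.5 to −5.90, 3 and 4 libraries).

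Among 26 symbols on a list of transcription and chromatin regulators, 4 had a fragment, and of their 5 fragments 2 were higher and 3 were lower. The 2 higher ones were both assigned to znf536, a zinc finger gene whose mouse counterpart represses neuronal differentiation in cultured cells. They lay on the same side of the gene, 72.9 kb apart. The nearer one (chromosome 7, 47956467 to 47956541; 24.4 kb from the gene) was at 51.0% and 66.6% in the authors' deposited table, a difference of 15.7 points (SE 2.14, interval 10.4 to 20.9, 4 and 4 libraries). It had the smallest SE and the smallest unadjusted p of the authors' deposited table, 0.000331 (F test). The farther one (47883469 to 47883615; 97.3 kb away) was at 39.9% and 63.3% in the authors' deposited table, the largest difference of all at 23.4 points, but with the largest SE as well (6.44, interval 6.84 to 39.9, 3 and 4 libraries). Levels of the fragments were 11.1 points apart in control and 3.33 points apart at 100 µg/L. Both intervals share the range 10.4 to 20.9 points, which is the whole interval of the nearer fragment. The difference at the farther fragment was larger by 7.73 points (SE 6.78 if the fragments were independent, but they share libraries). That gap was not tested.

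The 3 lower fragments of this list were assigned to casz1, zmiz1a and nfe2l1a. The zinc finger factor encoded by casz1 is needed for heart development in frog and mouse. Its intronic fragment (chromosome 23, 29244346 to 29244424) lay 2.46 kb inside a gene of 44.9 kb and was at 59.4% and 43.8% in the authors' deposited table, a difference of −15.6 points (SE 3.50, interval −24.1 to −7.03, 4 and 4 libraries). A coactivator related to the PIAS proteins is encoded by zmiz1a. The fragment (chromosome 13, 30639287 to 30639399) lay 5.68 kb outside it, the shortest such distance among the fragments outside genes, and had the lowest exposed level, 26.2% after 45.2% in control in the authors' deposited table. Its difference of −19.1 points came with a wide interval (SE 5.96, −33.6 to −4.49, 4 and 4 libraries). A bZIP factor that in mammals induces proteasome genes is encoded by nfe2l1a. In the authors' deposited table the fragment 32.4 kb away (chromosome 3, 24416735 to 24416779) was at 61.0% and 41.3%, a difference of −19.7 points (SE 4.47, interval −32.2 to −7.32). It was the only fragment with 3 libraries in both groups, and with 2 CpG sites it was also the one with the fewest sites.

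**Figure D2:**
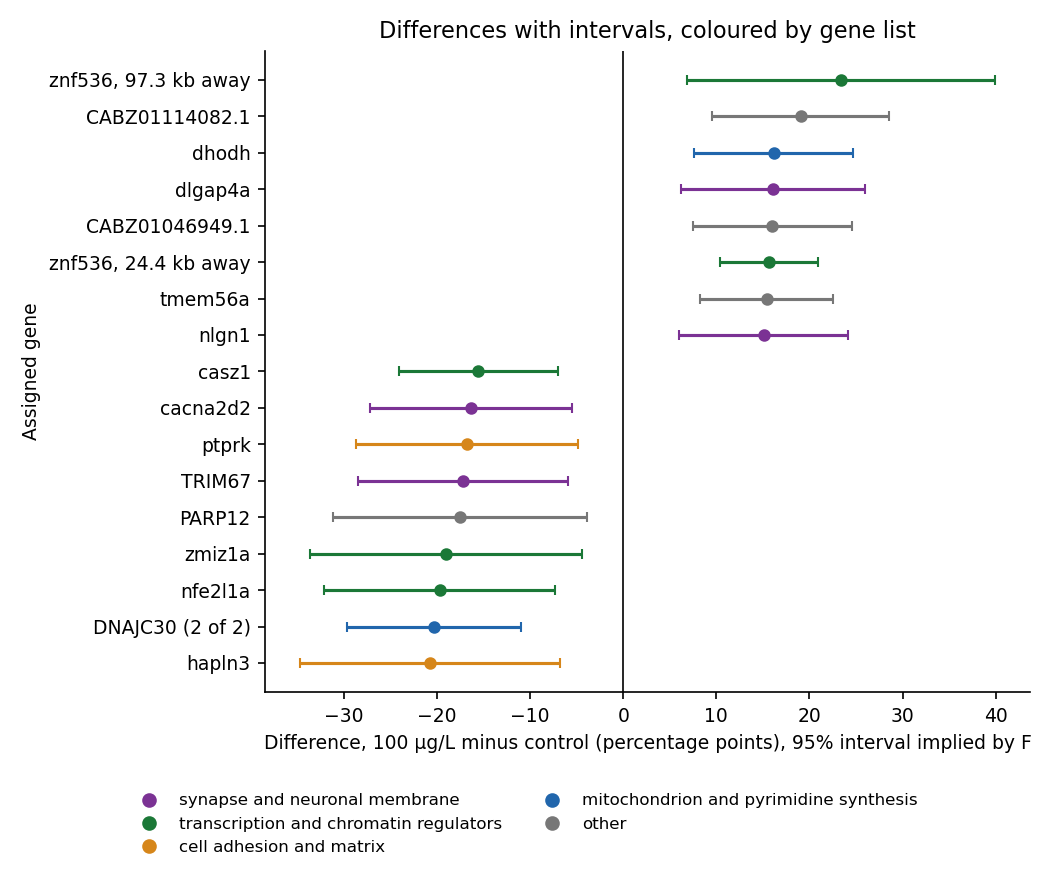
Difference in methylation, 100 µg/L minus control (percentage points, horizontal axis), with the 95% interval implied by the authors' F statistic, for each fragment (vertical axis), coloured by gene list. No interval reaches 0 at these fragments, which the authors picked from the same libraries, and the intervals of zmiz1a (to −4.49 points) and PARP12 (to −3.86 points) come closest to it.

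Of 24 symbols on an adhesion and matrix list, 2 had a fragment, both inside the gene and both lower at 100 µg/L. The link protein encoded by hapln3 ties proteoglycans to hyaluronan in the extracellular matrix. Its fragment (chromosome 25, 19692813 to 19692858), the only one on an exon, was at 77.3% in control, the highest control level, and at 56.5% with exposure, per the authors' deposited table. The loss of 20.8 points (SE 5.70, interval −34.7 to −6.83, 4 and 4 libraries) was the largest of the table. This short fragment of 46 bp held 9 CpG sites, or 19.6 per 100 bp, against 2.80 to 10.7 per 100 bp in the other 16 fragments. A receptor-type tyrosine phosphatase that mediates contact between cells is encoded by ptprk. The intronic fragment (chromosome 20, 1533748 to 1533804), 50.4 kb inside a gene of 119 kb, was at 76.5% and 59.7% in the authors' deposited table, a loss of 16.8 points (SE 4.63, interval −28.7 to −4.85, 3 and 4 libraries).

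Of 22 symbols on a list of mitochondrial and pyrimidine synthesis genes, 2 had a fragment, and they differed in direction. The enzyme encoded by dhodh sits in the inner mitochondrial membrane and oxidises dihydroorotate, a step of pyrimidine synthesis. Its intronic fragment (chromosome 7, 57791363 to 57791532) was the longest at 170 bp and was at 54.97% and 71.1% in the authors' deposited table, a gain of 16.1 points (SE 3.32, interval 7.61 to 24.7, 3 and 4 libraries). It lay near the far end of the gene, 10.9 kb from the gene end that the table measures from in a listed range of 12.1 kb. A mitochondrial protein of the J-domain family is encoded by DNAJC30 in mammals. The fragment assigned to DNAJC30 (2 of 2), 14.3 kb outside it (chromosome 15, 2601615 to 2601689), was at 61.0% and 40.6% in the authors' deposited table, a loss of 20.4 points (SE 3.82, interval −29.7 to −11.01, 4 and 4 libraries). Among the lower fragments it had the smallest unadjusted p in the authors' deposited table (0.00177, F test) and the interval farthest from 0. It lay 4.55 kb from the CpG island listed with it, the shortest such distance of the 17.

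The other 4 fragments were assigned to genes on none of the lists. For CABZ01114082.1 (chromosome 5, 151356 to 151444, intronic) the authors' deposited table gives 58.4% and 77.5%, a gain of 19.04 points (SE 3.90, interval 9.49 to 28.6, 4 and 4 libraries). The fragment 63.4 kb from CABZ01046949.1 (chromosome 12, 39541897 to 39542027) was at 50.7% and 66.7% in the authors' deposited table, a gain of 16.02 points (SE 3.33, interval 7.46 to 24.6, 3 and 4 libraries). Neither of these names was found in the zebrafish symbol tables at hand, and the same held for tmem56a and DNAJC30 (2 of 2). The fragment assigned to tmem56a (chromosome 24, 31379518 to 31379566), 24.96 kb outside the gene, had the lowest control level, 29.7%, and 45.1% with exposure, per the authors' deposited table, a gain of 15.4 points (SE 2.93, interval 8.21 to 22.6, 4 and 4 libraries). The one assigned to PARP12, an ADP-ribosyltransferase gene induced by interferon in mammals, was at 65.9% and 48.4% in the authors' deposited table, a loss of 17.5 points (SE 5.59, interval −31.2 to −3.86, 4 and 4 libraries). It lay 346 kb from the gene (chromosome 19, 46479118 to 46479181), the greatest distance of the table, and had the largest unadjusted p in the authors' deposited table, 0.0201 (F test). None of 24 symbols on a list of xenobiotic metabolism and thyroid genes had a fragment in this table. Without the number of fragments tested, that 0 and the counts of the other lists have no background to be read against.

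By place, the authors' deposited table puts 1 fragment on an exon, 6 on introns and 10 outside genes. The 10 lay 5.68 to 346 kb from the gene, with a median of 28.7 kb, and 9 of them were over 10 kb away. Of the 8 higher fragments 2 were inside a gene, and of the 9 lower ones 5 were, a contrast that was not tested. The assigned name is the gene listed with a fragment and does not place the fragment inside it. Expression of the genes was not analysed here. No fragment lay in the CpG island listed with it, and 3 lay within 10 kb of that island. Islands other than the listed ones were not looked at. The authors' deposited table marks a gene end as 5′ or 3′ for each fragment. In all 17 the listed distance, within 1 bp, ran from the low coordinate of the gene where the mark was 5′ (8 fragments) and from the high coordinate where it was 3′ (9 fragments), so the mark was not read as the start or end of transcription. At cacna2d2 and TRIM67, however, the listed CpG island held the gene end from which the table measures, and in 0 of the 17 did it hold the opposite end. Over the 153 distinct fragments of all pairs of groups these counts were 17 and 1. At the 10 fragments outside genes the measured end was the one nearer to the fragment. Inside genes it was the farther end at cacna2d2 (268 kb away in a range of 389 kb) and dhodh (10.9 kb in 12.1 kb). At the remaining fragments inside genes it was the nearer end. The part of nearness in these counts was not tested.

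**Figure D3:**
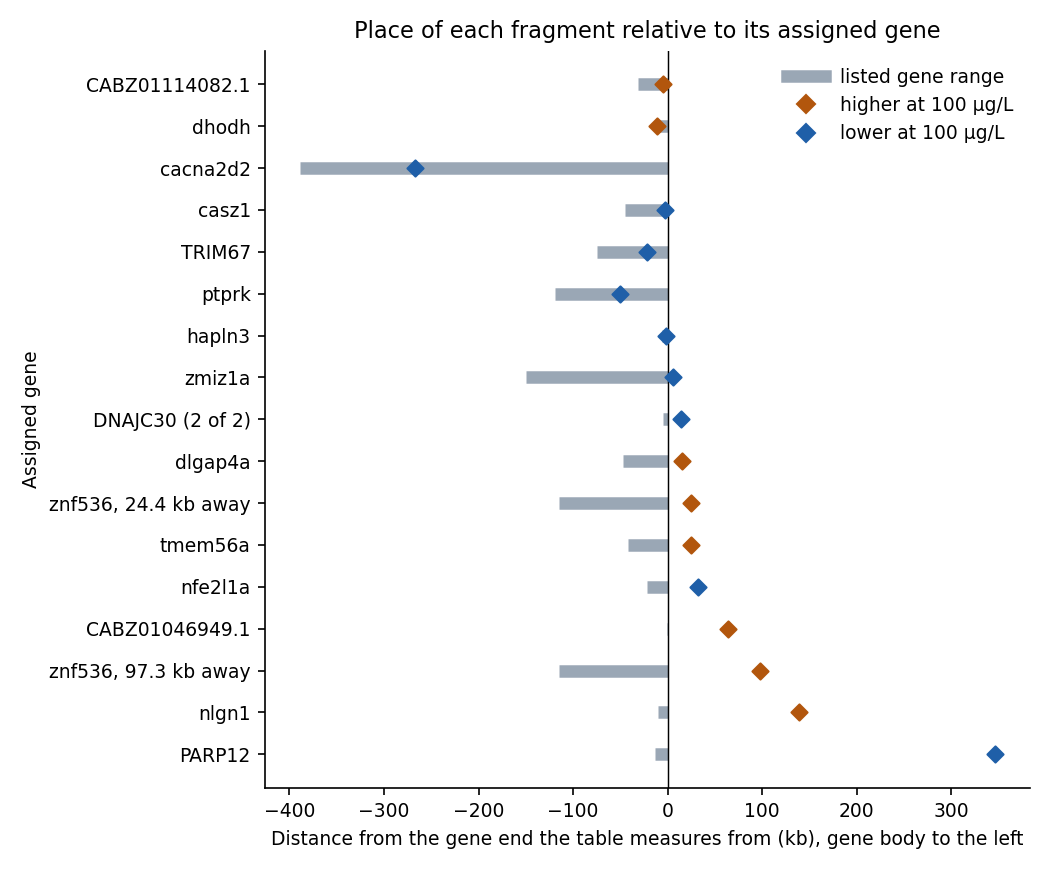
Place of each fragment (diamonds, orange for higher and blue for lower at 100 µg/L) in kb from the gene end that the table measures from, with the listed gene range as a grey bar to the left of 0. Of the 17 fragments 7 lie inside a bar, cacna2d2 268 kb from the measured end, and 10 lie outside, out to 346 kb at PARP12.

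Higher fragments were longer, with a median of 126 bp (49 to 170 bp) against 75 bp (45 to 126 bp) for lower ones. Reads were 100 bp long, and 5 of 8 higher and 3 of 9 lower fragments exceeded that. Across the 17 fragments the signed difference and the length had Spearman's rho of 0.62 and Pearson's r of 0.49, given as a description of fragments that share the same libraries. The part of length in the direction was not tested. The density of CpG sites had medians of 4.71 per 100 bp in higher and 4.69 in lower fragments. No other fragment listed for any pair of groups lay within 100 kb of one of the 17, apart from the second znf536 fragment, and the nearest was 315 kb away.

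The spread between libraries, pooled over both groups as the F statistics imply it, was 3.02 to 8.43 points (SD, median 5.52). The SD of a single group can lie outside that range, as in control at hapln3 (below). The differences were 2.22 to 5.18 times that SD. At lower fragments the SD had a median of 5.76 points and at higher ones 4.49 points. The lower fragments also had the larger median difference (17.5 against 16.1 points). The SD is computed from the difference and F, and this contrast was not tested. From the same F values, 7 of the 8 higher fragments had an unadjusted p of 0.01 or less in the authors' deposited table (F test). Of the 9 lower fragments 2 did, DNAJC30 (2 of 2) and casz1. The higher fragment above that value was the farther one at znf536. In the authors' deposited table p ranged from 0.000331 to 0.0201. The number of fragments tested is not given, and the smallest p would stay at or under 0.05 after a Bonferroni correction for at most 151 tests. The listed entries of all pairs of groups, 171, already exceed that number. Corrected for these alone, no p of the 17 fragments would stay at or under 0.05.

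**Figure D4:**
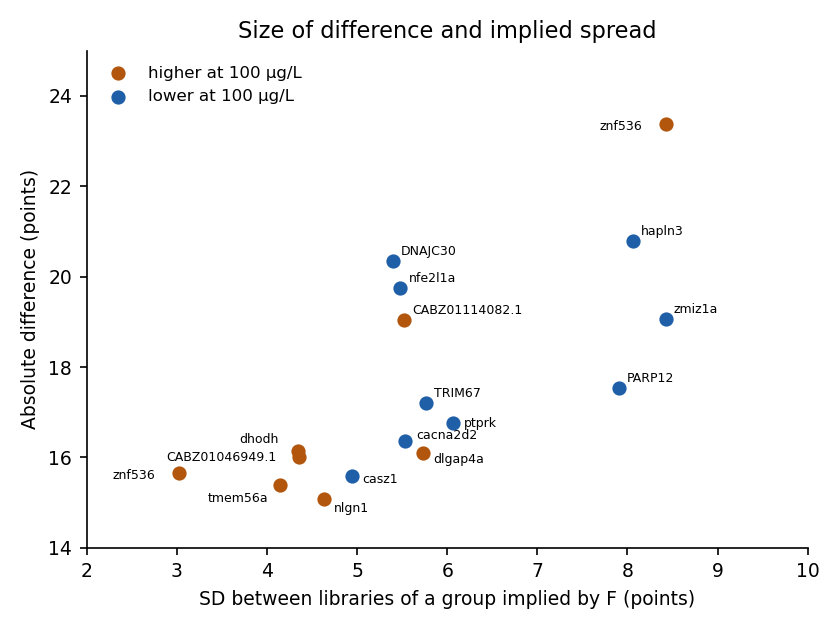
Absolute difference (percentage points, vertical axis, which starts at 14) against the SD between libraries implied by F (points, horizontal axis). The SD is pooled over both groups. Each point is a fragment, orange for higher and blue for lower at 100 µg/L. The znf536 fragments are at both ends, at 3.02 and 8.43 points, and larger differences go with larger SDs (Spearman's rho 0.72 across 17 fragments, a description, since the SD is computed from the difference and F).

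A level at 50 µg/L was listed for 3 of the 17 fragments, through tables that share either the control or the 100 µg/L libraries with this one. The 50 µg/L group had 3 of its 4 libraries at each of these fragments. The dlgap4a fragment was at 49.8% in control, 65.3% at 50 µg/L and 65.9% at 100 µg/L, per the authors' deposited tables, so that both exposed groups were above control by 15.5 (SE 3.69) and 16.1 points (SE 4.05). The exposed groups were 0.620 points apart, and with the largest SE that both F statistics allow (6.05 points) the 95% interval of that gap runs from −14.9 to 16.2 points. At CABZ01114082.1 the authors' deposited tables give 58.4%, 57.7% and 77.5% in the same order. The 100 µg/L group was 19.7 points above the 50 µg/L group (SE 4.93, interval 7.05 to 32.4), and 50 µg/L differed from control by −0.690 points (interval at most −18.1 to 16.7). At hapln3 the authors' deposited tables give 77.3%, 80.9% and 56.5%, and 100 µg/L differed from 50 µg/L by −24.3 points (SE 3.14, interval −32.4 to −16.2). Control and 50 µg/L were 3.54 points apart there (interval at most −15.6 to 22.7). At each of these fragments the remaining pair of groups was not listed by the authors. A small gap at that pair is thus linked to how the fragments were picked, and a dose pattern was not tested.

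The pair of tables also bounds the spread within single groups at these fragments, if F was computed on the levels printed. At hapln3 the control libraries must have had an SD of at least 10.1 points and the 100 µg/L libraries one of at most 5.31 points. The pooled SD of 8.06 points thus describes neither group there. The SE and interval against control at hapln3 take the same spread in both groups and are approximate. The same exposed pools had an SE of 3.14 points against 50 µg/L and of 5.70 points against control. At dlgap4a the SD was at most 6.23 points in control and at least 5.19 points at 100 µg/L, bounds that overlap. At CABZ01114082.1 the SD at 100 µg/L was at most 7.80 points.

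**Figure D5:**
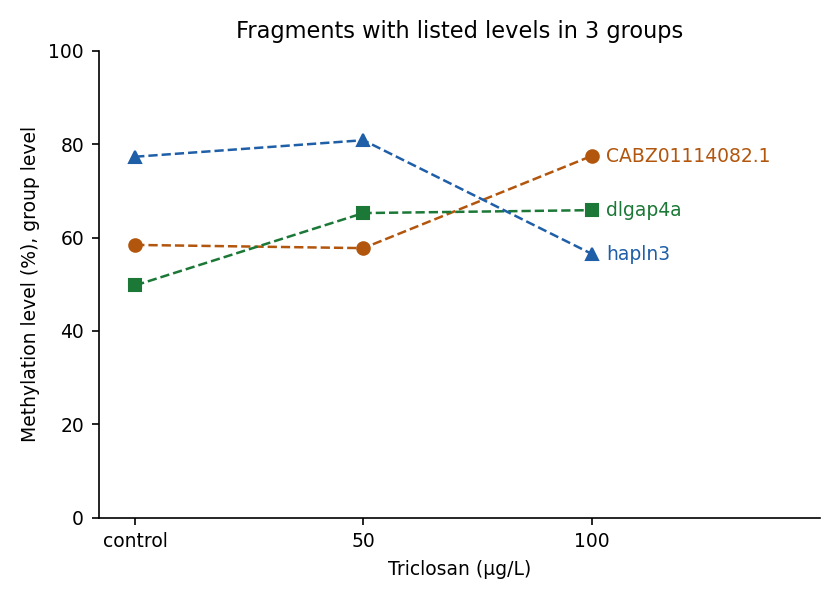
Group methylation level (%) in control and at 50 and 100 µg/L triclosan for the 3 fragments with a listed level in every group, joined by dashed lines to guide the eye. Each level at 50 µg/L rests on 3 libraries. The dlgap4a fragment is at 65.3% and 65.9% in the exposed groups, whereas CABZ01114082.1 (57.7%) and hapln3 (80.9%) are near control at 50 µg/L. In each case the pair with the small gap is the one the authors did not list, so the shapes are linked to the listing.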

How the data were processed

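The tables used hold the authors' own comparisons; no value per library and no read coverage entered, so depth is unknown. Group methylation levels are fractions deposited by the authors and are printed as percent. Each p-value in the deposited tables is the unadjusted p of the authors' F test. Positions are on Zv9, as named in the submitters' processing notes. Not given in the sources used here are the aligner, the caller, the coverage minimum, how many fragments were tested and how libraries were weighted in a group level. Columns were read by position. The order of control and exposed levels follows the tables' names. At the 3 fragments of this comparison that were also listed for another pair of groups, the shared group level was identical.

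The SE is the absolute difference divided by the square root of F. The SD between libraries, pooled over both groups, is the SE divided by the square root of the summed inverse library numbers. Intervals came from the t distribution at 4 to 6 degrees of freedom, as deposited. The sum of squares from 2 tables bounded the SD of single groups. Each holds if F came from an equally weighted analysis of the printed levels. The SE, pooled SD and intervals also take the same spread in both groups. The calculation was checked on simulated data with the same SD in both groups and no picking of fragments. That check does not cover intervals of fragments picked for their difference. In all 17 entries, the marked direction, library numbers and fragment lengths agreed, and p recomputed from F was within 0.0606%. The libraries used per fragment were 4 and 4 in 9 entries; the control group had 3 in 8 and the exposed group 3 in 1. The planned test needs single-library values and was not run.

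The fragments named are all 17. The members and gene lists were chosen with earlier results of these data known. Symbols were matched without case and without the copy number in brackets; 12 of 16 gene names matched the current symbol tables for zebrafish. No sequence is printed, since no genome of build Zv9 was used here. Software was Python 3.11.15, numpy 2.4.6, pandas 2.3.3, scipy 1.17.1 and matplotlib 3.10.9.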

Additional observations from a re-analysis of the deposited data

Results flagged for a closer look

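At 2 fragments the difference between both doses was itself listed by the authors, with 3 libraries at 50 µg/L. The p-values are unadjusted for an unknown number of tests, and a response particular to either dose was not tested. At hapln3 the level at 100 µg/L was lower than at 50 µg/L (difference −24.32 points, unadjusted p = 0.000573, F test in the authors' deposited table). At CABZ01114082.1 it was 19.73 points higher (unadjusted p = 0.0103, F test in the authors' deposited table). Both were picked by that difference, and both comparisons share the 100 µg/L pools, so the second comparison is not separate evidence.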

How the results depend on the processing

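The 17 listed fragments became 3 with a difference of at least 20 points (1 higher, 2 lower), and 9 with 4 libraries in each group (4 higher, 5 lower). With an unadjusted p of 0.01 or less, 9 were kept, and the lower ones went from 9 to 2 while 7 of 8 higher ones stayed. With 99% intervals, 9 of 17 left out 0, which repeats the p limit of 0.01, since interval and p both come from F. The SEs taken from p add no separate check for the same reason. Counting fragments within 50 kb of a gene in place of 10 kb gave 13 in place of 8. The other 29 values stayed within 1.5 times the main count or within the SD between libraries; these were fragments with 3 or more CpG sites, inside a gene only, SEs taken from p, the median difference (16.02 to 17.5 points, 16.8 over all) and, chosen after seeing the data, 1 fragment per assigned gene. No paired analysis was possible because the tables hold no values per library, and for the same reason leaving out a library was not run. Read depth is unknown, so how far it limits any level cannot be stated.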
